A study of Homo sapiens with 9 samples.

Results

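The genes described here encode the core of the NRF2 antioxidant response. They are NFE2L2, which encodes the transcription factor NRF2, its inhibitor KEAP1, and the targets NQO1, HMOX1, GCLC, GCLM, TXNRD1, SRXN1 and SLC7A11. They were chosen by symbol, with earlier results of these data known, and they are 9 of the 60199 symbols in the count table. RNA was measured by poly-A RNA sequencing in MCF10A, a non-malignant human mammary epithelial cell line of fibrocystic origin that lacks CDKN2A and carries an amplified MYC, and in lines transformed from it. CT (MCF10A-CT) is the parental line, grown with no supplement and not transformed. MC26 was obtained from unsorted MCF10A cells under long exposure to BMP2 and IL6, which the labels give as 5 ng per µl and 10 ng per µl. The study's methods give equal doses of both factors in another unit. M1B26 came from MCF10A cells that had been sorted for the receptor BMPR1B, treated with the same 2 factors, picked as soft-agar clones and expanded with the factors still present. All lines shared a basal medium with horse serum, insulin, hydrocortisone, cholera toxin and EGF. Each line was sampled as 3 independent cultures. The M1B26 line came from several soft-agar clones, and whether its libraries differ by clone or only by culture is not known, so the spread in M1B26 may be either.

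NRF2 is held at a low level by KEAP1, which hands it to a CUL3 ubiquitin ligase for degradation. Oxidants and electrophiles modify cysteines of KEAP1, after which NRF2 accumulates, pairs with small MAF proteins and binds antioxidant response elements near its target genes, where BACH1 competes as a repressor. The targets make glutathione, keep thioredoxin and peroxiredoxins reduced, detoxify quinones and degrade heme. In epithelia such as that of the breast the pathway is a main defence against oxidants, and some carcinomas hold it active through mutations of KEAP1 or NFE2L2. Because NRF2 is governed largely through protein stability, RNA counts do not measure its activity.

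Total counts ranged from 21425118 to 80076597 per library, and the lowest count of any of the 9 genes was 109, for HMOX1 in the shallowest library, CT replicate 2. Libraries of the same line correlated over genes at 0.986 to 0.995 in log2 CPM (counts per 1000000 of the TMM-scaled library). Epithelial keratins and TP63 were present in every line, and the summed level of 10 mammary epithelial markers was 9516 to 11811 CPM in CT, 15434 to 19425 CPM in MC26 and 11513 to 12349 CPM in M1B26. KRT5 and KRT6A made up most of this sum. KRT6A had means of 1949 CPM in CT, 6213 CPM in MC26 and 3001 CPM in M1B26, and KRT14 had 54.1, 1097 and 548 CPM. KRT5, at 6586, 6264 and 4924 CPM, and KRT18, at 534, 436 and 545 CPM, were not higher in MC26. EPCAM and CDH1 also went the other way in MC26. Their means were 70.4 and 76.4 CPM in CT, 14.8 and 40.7 CPM in MC26 and 72.1 and 44.1 CPM in M1B26. The summed level of 7 fibroblast markers was 37.4 to 37.8 CPM in CT, 17.1 to 56.8 CPM in MC26 and 28.5 to 39.9 CPM in M1B26, with COL1A2 and COL3A1 at no more than 1 count in any library. DCN and COL1A1 made up most of it, and LUM had means of 0.108, 0.128 and 5.11 CPM in the same order. The summed level of 5 endothelial markers was 7.53 to 7.78, 1.02 to 1.39 and 2.84 to 4.91 CPM in the same order, with CLDN5 at 0 counts and CDH5 at no more than 1. PECAM1 had means of 5.04, 0.268 and 0.898 CPM and KDR 2.56, 0.892 and 2.62 CPM. Of 7 leukocyte markers, CD3E had 0 counts and PTPRC at most 2, while CD14 and CD68 brought the summed level to 14.9 to 20.0 CPM in CT, 34.5 to 36.8 CPM in MC26 and 56.9 to 79.0 CPM in M1B26. Ribosomal protein genes took 5.78% to 6.21% of counts in CT, 5.65% to 6.41% in MC26 and 8.03% to 8.73% in M1B26. Mitochondrially encoded genes took 1.92% to 2.09%, 1.87% to 2.68% and 1.26% to 1.59% in the same order. The part of these differences in the results below was not tested. The sources used here do not give which libraries were prepared or sequenced together, so line and preparation cannot be told apart where they coincide.

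All 9 genes were matched to GENCODE v44 on GRCh38. NFE2L2 lies on chromosome 2 (177218667 to 177392756, minus strand), KEAP1 on chromosome 19 (10486125 to 10503558, minus strand) and NQO1 on chromosome 16 (69706996 to 69726668, minus strand). HMOX1 lies on chromosome 22 (35380361 to 35394214, plus strand) and SLC7A11 on chromosome 4 (138164097 to 138242349, minus strand). GCLC is on chromosome 6 (53497341 to 53616970, minus strand) and GCLM on chromosome 1 (93885199 to 93909456, minus strand). TXNRD1 is on chromosome 12 (104215779 to 104350307, plus strand) and SRXN1 on chromosome 20 (646615 to 653200, minus strand). Whether counting used strand is not known. Exons of NFE2L2 share 3509 bases with HNRNPA3 on the opposite strand, and those of SRXN1 share 2292 bases with a readthrough gene on the same strand. Antisense RNAs overlap exons of NQO1, GCLC and SLC7A11 by 575, 305 and 865 bases. Long non-coding RNAs on the same strand share 2037 exonic bases with NFE2L2 and 529 with GCLC. Reads from these stretches cannot be assigned with certainty.

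Promoter windows from RefSeq (GRCh38.p14, 250 bases before to 50 bases after a transcription start) were found for 7 of the 9 genes, all but HMOX1 and SLC7A11. They were searched on both strands for the core antioxidant response element, TGACNNNGC. A match was present in windows of 3 genes, GCLM, TXNRD1 and KEAP1, against 16.1% of the 27305 genes with a window and 13.3% of the 35116 windows. The windows with a match are shown. GCLM and TXNRD1 fell in M1B26 against CT, but so did NQO1 and GCLC, whose windows held 0 matches. The inhibitor KEAP1, which was not called in that comparison, carries the same letters as GCLM. Whether a match goes with a fall was not tested. The 150 bases printed run from 140 before to 10 after the start, 5′ to 3′ on the strand of the gene, and capitals mark the matches.
GCLM (chr1:93909421-93909570, minus strand): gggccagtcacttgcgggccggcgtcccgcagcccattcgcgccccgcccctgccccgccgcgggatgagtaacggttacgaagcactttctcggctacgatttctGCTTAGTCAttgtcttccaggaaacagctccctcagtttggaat
KEAP1 (chr19:10502762-10502911, minus strand): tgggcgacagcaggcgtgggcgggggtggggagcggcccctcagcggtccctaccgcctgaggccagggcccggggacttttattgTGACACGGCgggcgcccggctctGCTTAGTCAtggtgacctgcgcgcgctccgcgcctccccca
TXNRD1, upstream start (chr12:104215639-104215788, plus strand): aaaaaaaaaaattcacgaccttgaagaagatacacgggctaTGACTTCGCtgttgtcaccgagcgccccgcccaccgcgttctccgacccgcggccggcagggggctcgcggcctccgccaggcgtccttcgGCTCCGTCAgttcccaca
TXNRD1, downstream start (chr12:104286892-104287041, plus strand): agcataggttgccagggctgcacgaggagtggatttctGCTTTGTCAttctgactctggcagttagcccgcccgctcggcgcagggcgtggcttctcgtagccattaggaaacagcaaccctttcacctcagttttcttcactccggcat
The match of GCLM, 34 bases before the start, reads TGACTAAGC on the opposite strand. The same 9 letters stand in the printed KEAP1 window 31 bases before its start, and a further match there, 54 bases before the start, reads TGACACGGC. Another KEAP1 window, upstream (chr19:10503307-10503606), held 0 matches. TXNRD1 had matches at 3 places over 2 windows, and their letters differed (TGACTTCGC, TGACGGAGC and TGACAAAGC). A match to these letters does not show binding, and no binding was measured. Sequence outside the windows was not searched, so a gene without a match may hold one elsewhere.

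Per kilobase of the canonical transcript, NQO1, a quinone reductase, was the most abundant of the 9 RNAs in every line, at 200.1 ± 14.8 CPM per kb in CT, 163 ± 37.4 CPM per kb in MC26 and 104 ± 1.82 CPM per kb in M1B26 (SD, n = 3). HMOX1, the heme oxygenase, was the least abundant, at 3.03 ± 0.189, 4.37 ± 1.20 and 3.41 ± 0.291 CPM per kb. TXNRD1, the cytosolic thioredoxin reductase, had rank 2 in CT at 68.4 ± 5.18 CPM per kb, above NFE2L2. In M1B26 it had rank 5 at 29.8 ± 2.61 CPM per kb, below NFE2L2, SRXN1 and KEAP1, and the libraries of TXNRD1 and KEAP1 did not overlap. In CT the order was NQO1, TXNRD1, NFE2L2, SRXN1, KEAP1, GCLC, GCLM, SLC7A11 and HMOX1, and SRXN1 and KEAP1 were the only neighbours whose libraries overlapped. In MC26, SRXN1, NFE2L2, TXNRD1 and KEAP1 overlapped in succession after NQO1, and SLC7A11 overlapped GCLM. In M1B26, NFE2L2 overlapped SRXN1 and SLC7A11 overlapped GCLM. The plot of levels by library shows the values behind these ranks, in CPM.

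**Figure D1:**
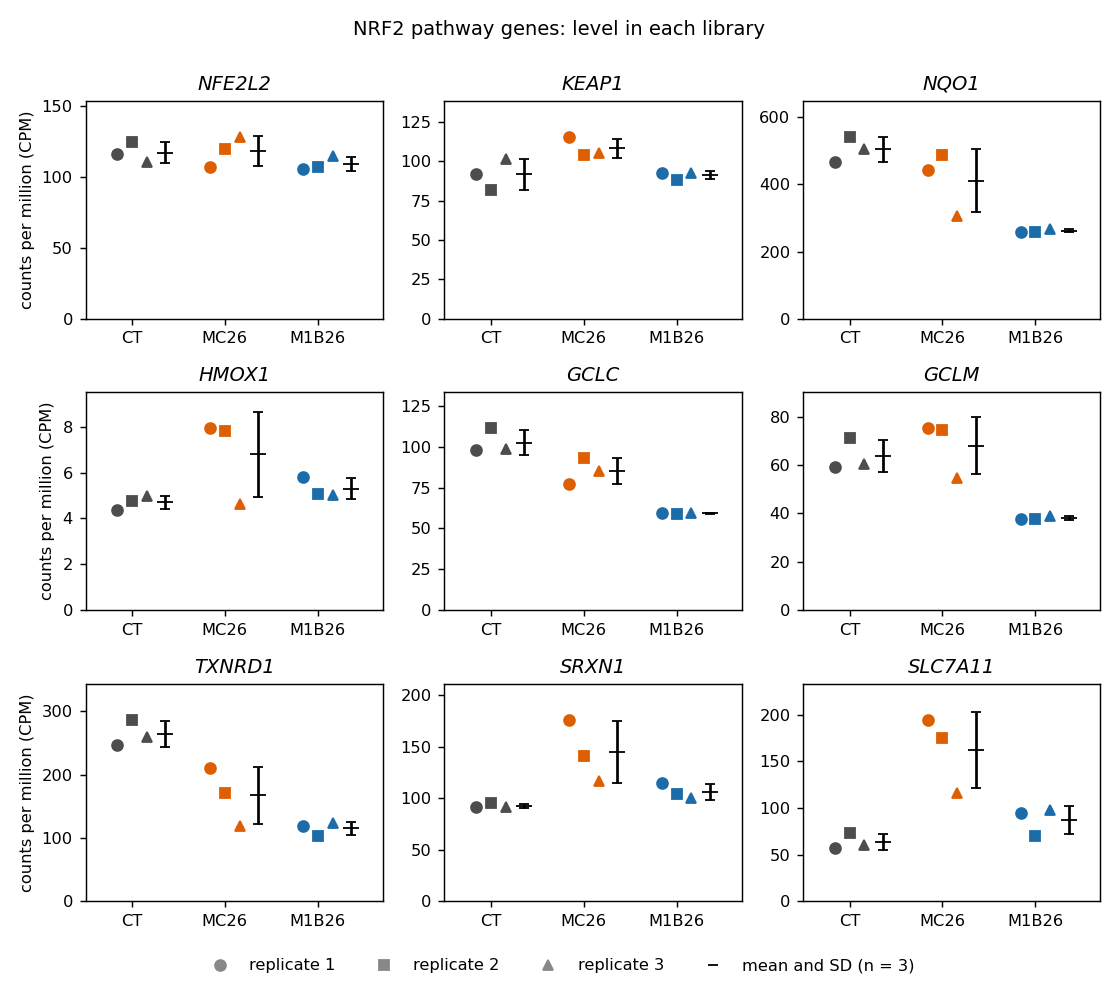
Level of each of the 9 genes in CPM (y axis, from 0) in CT, MC26 and M1B26 (x axis); each symbol is a library, its shape the replicate number, and the bar is the mean and SD (n = 3). NQO1, GCLC, GCLM and TXNRD1 stood lowest in M1B26, with NQO1 at 259.5, 258 and 267 CPM there against 466, 541 and 506 CPM in CT, and SLC7A11 stood highest in MC26.

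MC26 and CT differed in both directions. The cystine importer gene SLC7A11 and the sulfiredoxin gene SRXN1 rose in MC26, to 2.54-fold and 1.56-fold of CT, whereas TXNRD1 fell by 36.8% and GCLC, the catalytic subunit of glutamate-cysteine ligase, by 16.8%. KEAP1 and HMOX1 also passed the test as higher. In total 4 of the 9 genes were higher and 2 lower at an adjusted p under 0.05 (edgeR), beside 38.7% of the 15717 genes tested (18.8% higher and 19.9% lower). The median log2 fold change was 0.10 over the 9 genes and 0.00 over all genes tested. In 5 of the 9 the libraries of the lines did not overlap, beside 50.3% of all genes. The count fell to 3 without CT replicate 2 and without MC26 replicate 1, with SRXN1, SLC7A11 and TXNRD1 called in both cases. With total counts in place of TMM scaling, 2 genes were higher and 2 lower.

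In M1B26 no gene of the 9 was called higher than in CT, and 4 fell. TXNRD1 fell by 56.4%, NQO1 by 48.2%, GCLC by 42.1% and GCLM, the modifier subunit of glutamate-cysteine ligase, by 40.0%. Calls covered 48.9% of all genes tested in this comparison, with 23.7% of all genes called lower and 25.2% called higher. The count of 0 higher genes was 1 at an unadjusted p under 0.05 and 1 by DESeq2, in both cases SLC7A11, and 0 by limma voom. SLC7A11 was also called higher with offsets for gene length and GC content (adjusted p = 0.0191) and with the replicate block added to them (adjusted p = 0.0264). The same held with no filter (adjusted p = 0.00014), with only the 6 libraries compared (adjusted p = 0.0161) and in 4 of the fits that left out a library. The median log2 fold change was -0.10 over the 9 genes and 0.00 over all genes. The libraries did not overlap in 6 of the 9, beside 59.0% of all genes. As RNA was taken from whole cultures, less RNA per cell and fewer cells with the RNA cannot be told apart.

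The direct test of M1B26 against MC26 gave 7 of the 9 genes as lower in M1B26, beside 39.5% of all genes called (18.4% lower and 21.2% higher). SLC7A11 fell by 45.8%, GCLM by 43.98%, NQO1 by 36.5%, TXNRD1 by 31.0%, GCLC by 30.3%, SRXN1 by 26.5% and KEAP1 by 15.6%. NFE2L2 and HMOX1 did not pass the test, and their log2 fold changes were -0.12 and -0.36. No gene was called higher, and none at an unadjusted p under 0.05, by DESeq2 or by limma voom. The median log2 fold change was -0.52 over the 9 genes and 0.00 over all genes, and 6 of the 9 did not overlap between the lines, beside 53.5% of all genes. The count was 4 without M1B26 replicate 2 and 8 without MC26 replicate 3. All comparisons rest on the same 9 libraries, and any pair of them shares a line.

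**Figure D2:**
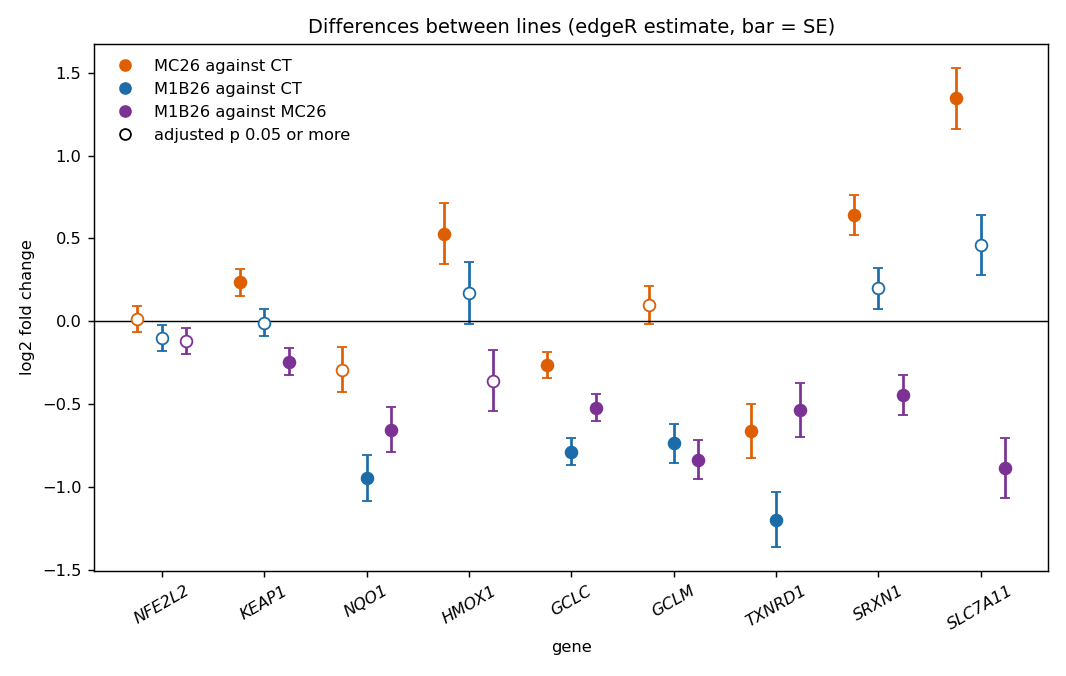
Log2 fold change of each of the 9 genes (y axis; bar, SE) for both transformed lines against CT and for M1B26 against MC26; open symbols have an adjusted p of 0.05 or more. SLC7A11 in MC26 (1.35) and TXNRD1 in M1B26 (-1.20) are the largest differences from CT, and all 9 points for M1B26 against MC26 lie under 0.

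NFE2L2 RNA stood at 116, 125 and 111 CPM in the CT libraries, 107, 119.7 and 128 CPM in MC26 and 105, 107 and 114 CPM in M1B26. The lines overlapped, and no comparison passed the test. The log2 fold change was 0.02 for MC26 against CT (SE 0.08, adjusted p = 0.893), -0.10 for M1B26 against CT (adjusted p = 0.3) and -0.12 between the transformed lines (adjusted p = 0.25). KEAP1, the inhibitor, stood at 91.8, 82.0 and 101 CPM in CT, 115, 104 and 105 CPM in MC26 and 92.8, 88.4 and 92.7 CPM in M1B26. All MC26 libraries lay above all others, while CT and M1B26 overlapped. KEAP1 rose in MC26 against CT (log2 fold change 0.23, SE 0.08, adjusted p = 0.0406) and was lower in M1B26 than in MC26 (log2 fold change -0.24, SE 0.08, adjusted p = 0.0341), and M1B26 against CT gave -0.01 (adjusted p = 0.933). The MC26 call was lost when any library except CT replicate 3 was left out (adjusted p 0.0534 to 0.147), and with total counts as the scaling (adjusted p = 0.117). The call between M1B26 and MC26 was lost without MC26 replicate 1 or 2 or without any M1B26 replicate (adjusted p 0.0589 to 0.13).

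The ratio of NFE2L2 to KEAP1 counts within a library, which does not depend on scaling, was 1.29 ± 0.217 in the CT libraries, 1.099 ± 0.151 in those of MC26 and 1.19 ± 0.0518 in those of M1B26 (SD, n = 3). The libraries of the 3 lines overlapped, and 2-sided exact permutation tests of the mean log2 ratio gave p = 0.4 for MC26 against CT, p = 0.6 for M1B26 against CT and p = 0.6 between the transformed lines. With 3 libraries against 3 the smallest p such a test can give is 0.1.

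NQO1, which reduces quinones and is widely read as an indicator of NRF2 activity, stood at 466, 541 and 506 CPM in CT, 443, 487 and 306 CPM in MC26 and 259.5, 258 and 267 CPM in M1B26. Every M1B26 library lay below every other library, and MC26 replicate 3 lay between M1B26 and the rest. NQO1 fell in M1B26 against CT (log2 fold change -0.95, SE 0.14, adjusted p = 0.000239) and against MC26 (log2 fold change -0.65, SE 0.14, adjusted p = 0.00364). MC26 against CT did not pass the test (log2 fold change -0.29, SE 0.14, adjusted p = 0.114), although it did without MC26 replicate 2 (adjusted p = 0.0402).

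HMOX1, which degrades heme, stood at 4.39, 4.76 and 4.97 CPM in CT, 7.93, 7.82 and 4.64 CPM in MC26 and 5.82, 5.07 and 5.00 CPM in M1B26. In MC26, replicates 1 and 2 were above all other libraries and replicate 3 lay within CT. The higher level in MC26 passed the test (log2 fold change 0.53, SE 0.18, adjusted p = 0.0419), but the call was lost when any library except MC26 replicate 3 was left out (adjusted p 0.0517 to 0.149) and with total counts as the scaling (adjusted p = 0.0699), the replicate block (adjusted p = 0.0599), limma voom (adjusted p = 0.0626) or only the 6 libraries compared (adjusted p = 0.0756). Without MC26 replicate 3 the log2 fold change was 0.74 (adjusted p = 0.000759). All M1B26 libraries were above all CT libraries, by less than the test could call (log2 fold change 0.17, SE 0.19, adjusted p = 0.473). M1B26 against MC26 did not pass (log2 fold change -0.36, SE 0.18, adjusted p = 0.143), and did so without MC26 replicate 3 (log2 fold change -0.57, adjusted p = 0.00377) and with the length and GC offsets (adjusted p = 0.0342).

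SLC7A11 encodes the transport subunit of the cystine/glutamate exchanger, which brings in the cysteine for glutathione. Its level was 57.7, 73.7 and 60.3 CPM in CT, 194, 175 and 116 CPM in MC26 and 95.0, 70.4 and 97.6 CPM in M1B26. All MC26 libraries lay above all others, and M1B26 replicate 2 lay within the CT range while its other replicates lay above CT. SLC7A11 rose in MC26 (log2 fold change 1.35, SE 0.18, adjusted p = 0.000247) and was lower in M1B26 than in MC26 (log2 fold change -0.88, SE 0.18, adjusted p = 0.00322). M1B26 against CT missed the threshold (log2 fold change 0.46, SE 0.18, adjusted p = 0.0559), and it passed without CT replicate 2, MC26 replicate 1, MC26 replicate 3 or M1B26 replicate 2 (adjusted p 0.0127 to 0.0449). SLC3A2, which encodes the heavy chain that carries SLC7A11 to the membrane and also serves other transporters, stood at 631, 539.6 and 670.3 CPM in CT, 497, 451 and 421 CPM in MC26 and 568, 509 and 592 CPM in M1B26. It fell in MC26 (log2 fold change -0.43, SE 0.10, adjusted p = 0.00516), where its partner rose, and the M1B26 libraries overlapped those of CT (log2 fold change -0.14, adjusted p = 0.244).

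GCLC and GCLM encode the catalytic and the modifier subunit of glutamate-cysteine ligase, the rate-limiting enzyme of glutathione synthesis. GCLC stood at 97.9, 111 and 98.6 CPM in CT, 77.3, 93.2 and 85.3 CPM in MC26 and 59.7, 59.0 and 59.5 CPM in M1B26. The lines did not overlap in any comparison, and the order was CT, MC26, M1B26 from high to low. GCLC fell in MC26 (log2 fold change -0.27, SE 0.08, adjusted p = 0.0214), fell further in M1B26 (log2 fold change -0.79, SE 0.08, adjusted p = 2.05e-05), and differed between the transformed lines (log2 fold change -0.52, SE 0.08, adjusted p = 0.000588). The MC26 call was lost without CT replicate 2 (adjusted p = 0.0555) and without MC26 replicate 1 (adjusted p = 0.0931).

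GCLM, whose promoter match is printed above, stood at 59.4, 71.2 and 60.4 CPM in CT, 75.1, 74.4 and 54.5 CPM in MC26 and 37.6, 37.8 and 38.8 CPM in M1B26. Every M1B26 library lay below every other library, and MC26 overlapped CT, with replicates 1 and 2 above it and replicate 3 below it. GCLM fell in M1B26 against CT (log2 fold change -0.74, SE 0.12, adjusted p = 0.000436) and against MC26 (log2 fold change -0.84, SE 0.12, adjusted p = 0.000349), and did not pass in MC26 (log2 fold change 0.10, SE 0.12, adjusted p = 0.537). Among the M1B26 libraries GCLC and GCLM were tight, with coefficients of variation of 0.603% and 1.75%.

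The ratio of GCLM to GCLC counts was 0.619 ± 0.0174 in CT and 0.641 ± 0.0116 in M1B26 (SD, n = 3). In MC26 it was 0.972, 0.798 and 0.639 in replicates 1 to 3, so replicate 3 lay in the CT range. None of the lines separated, and 2-sided exact permutation tests gave p = 0.2 for MC26 against CT, p = 0.2 for M1B26 against CT and p = 0.3 between the transformed lines.

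TXNRD1, which keeps thioredoxin reduced, stood at 247, 286 and 259 CPM in CT, 210.3, 171 and 119 CPM in MC26 and 118, 104 and 123 CPM in M1B26. All CT libraries lay above all libraries of the transformed lines, and MC26 replicate 3 lay within M1B26. TXNRD1 fell in MC26 (log2 fold change -0.66, SE 0.16, adjusted p = 0.00816) and in M1B26 (log2 fold change -1.20, SE 0.16, adjusted p = 0.000157). It was lower in M1B26 than in MC26 (log2 fold change -0.54, SE 0.16, adjusted p = 0.0225), a call that was lost without MC26 replicate 1 or 2 or M1B26 replicate 1 or 2 (adjusted p 0.0539 to 0.0895).

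SRXN1 encodes sulfiredoxin, which restores overoxidized peroxiredoxins. It stood at 91.6, 95.0 and 91.8 CPM in CT, 176, 141 and 117 CPM in MC26 and 115, 104 and 100.2 CPM in M1B26. The lines did not overlap, with MC26 above M1B26 and M1B26 above CT. SRXN1 rose in MC26 (log2 fold change 0.64, SE 0.12, adjusted p = 0.002) and was lower in M1B26 than in MC26 (log2 fold change -0.44, SE 0.12, adjusted p = 0.0144), while M1B26 against CT did not pass (log2 fold change 0.20, SE 0.12, adjusted p = 0.203). The call between M1B26 and MC26 was lost without M1B26 replicate 2 (adjusted p = 0.0528) and without M1B26 replicate 3 (adjusted p = 0.0549). TXNRD1 and SRXN1, which both serve the thioredoxin and peroxiredoxin cycle, therefore moved in opposite directions in MC26.

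The MC26 libraries spread more than the others for most of the 9 genes. The coefficient of variation in MC26 was 27.5% for HMOX1, 27.3% for TXNRD1, 25.2% for SLC7A11, 22.9% for NQO1 and 20.6% for SRXN1, against at most 13.5% for any of the 9 genes in CT and 17.1% in M1B26. MC26 replicate 3 was the lowest MC26 library for 6 of the 9 genes, beside 37.4% of all genes tested. By rank alone such a shared shift was not particular to that library. CT replicate 1 was the lowest CT library for 7 of the 9, all of them targets, beside 19.4% of all genes. CT replicate 2 was the highest CT library for 7, and the share of all genes was not taken there. The shift in CT replicate 1 was smaller. For these 7 targets its level was 0.861 (SLC7A11) to 0.981 (SRXN1) times the mean of the other CT libraries. M1B26 replicate 2 was below the mean of the other M1B26 libraries for all 9 genes. It was the lowest M1B26 library for 5 of the 9, beside 33.9% of all genes. Its ratio to that mean was 0.731 for SLC7A11 and 0.860 for TXNRD1, and 0.936 (HMOX1) to 0.990 (GCLM) for the rest. The level in MC26 replicate 3 relative to the mean of the other MC26 libraries was 0.658 for NQO1, 0.589 for HMOX1 and 0.729 for GCLM. It was 0.627 for TXNRD1, 0.736 for SRXN1 and 0.629 for SLC7A11. Over all genes MC26 replicates 1 and 3 correlated at 0.986, the lowest value within a line. In MC26 replicate 3 the ratio was 1.13 for NFE2L2, 0.962 for KEAP1 and 1.001 for GCLC. The 6 targets were thus lower together in this library, with NFE2L2 and GCLC not lower.

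Without MC26 replicate 3, MC26 against CT gave log2 fold changes of 1.54 for SLC7A11, 0.78 for SRXN1 and -0.47 for TXNRD1, all called. GCLM then gave 0.24 (adjusted p = 0.0512) and NQO1 -0.12 (adjusted p = 0.272). M1B26 against MC26 gave -1.07 for SLC7A11, -0.97 for GCLM and -0.83 for NQO1. The plot of levels relative to CT shows this library beside the others.

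**Figure D3:**
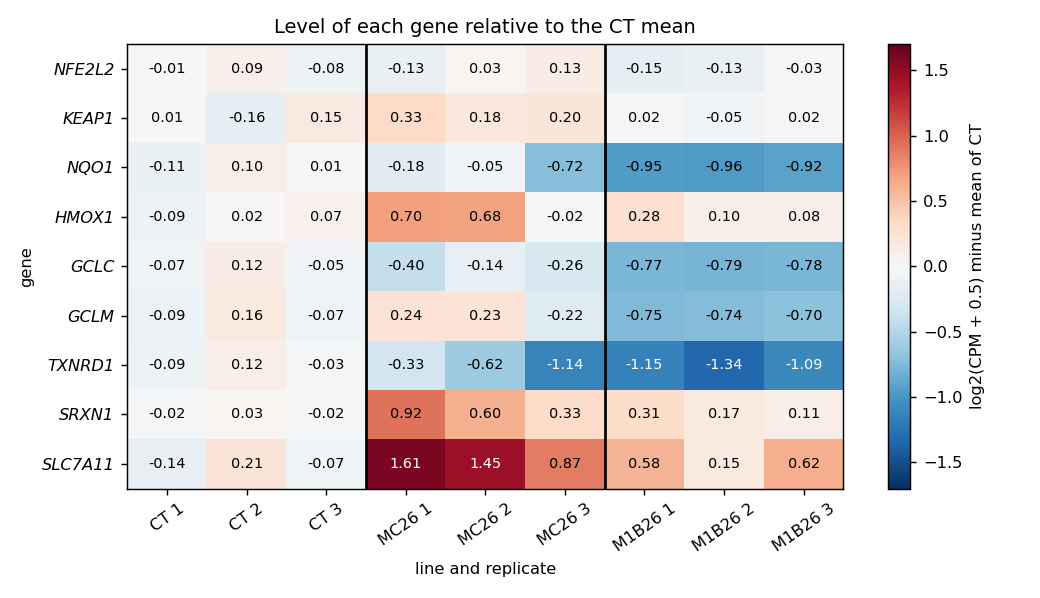
Level of each of the 9 genes (y axis) in each of the 9 libraries (x axis), as log2(CPM + 0.5) minus the CT mean; red is above and blue below CT. In MC26, NQO1 was -0.18, -0.05 and -0.72 in replicates 1 to 3, and in M1B26 it was -0.95, -0.96 and -0.92.

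Other genes of the pathway came from lists written from general knowledge. Of 24 partners and regulators of NRF2, 6 were higher and 3 lower in MC26, 8 higher and 6 lower in M1B26, and 3 higher and 5 lower in M1B26 against MC26. Their median log2 fold changes were 0.06, -0.01 and -0.06, beside 0.00 in each comparison over all genes. Calls over all genes came to 38.7%, 48.9% and 39.5% in the same order, so the 9 of 24 in MC26 are near that share. Without CT replicate 1, 5 were called in MC26. With the length and GC offsets 13 were higher and 3 lower in MC26, and with total counts 6 were higher and 8 lower in M1B26. Over all 15717 genes the offsets gave 4674 higher and 3108 lower in MC26, and total counts gave 3094 higher and 4729 lower in M1B26. BACH1, the repressor that competes with NRF2, stood at 27.8, 32.1 and 26.4 CPM in CT, 33.9, 34.9 and 36.3 CPM in MC26 and 47.8, 47.4 and 56.4 CPM in M1B26, with no overlap between the lines. It rose in MC26 (log2 fold change 0.29, SE 0.09, adjusted p = 0.0284) and more in M1B26 (log2 fold change 0.82, SE 0.09, adjusted p = 4.15e-05), and the lines differed (log2 fold change 0.53, SE 0.09, adjusted p = 0.00121). The MC26 call was lost without CT replicate 1 or 3 or MC26 replicate 2 or 3 (adjusted p 0.0626 to 0.09), and with total counts as the scaling (adjusted p = 0.125).

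CUL3, the scaffold of the ligase that KEAP1 recruits, stood at 89.9, 105 and 86.2 CPM in CT, 84.5, 94.0 and 86.5 CPM in MC26 and 73.2, 74.7 and 75.6 CPM in M1B26. It fell in M1B26 against CT (log2 fold change -0.33, SE 0.08, adjusted p = 0.0057). SQSTM1, which encodes p62, a cargo receptor of autophagy that can sequester KEAP1 and is itself an NRF2 target, stood at 593, 528 and 632 CPM in CT, 468, 492 and 388 CPM in MC26 and 357, 366 and 369.8 CPM in M1B26. It fell in MC26 (log2 fold change -0.38, SE 0.09, adjusted p = 0.00866) and in M1B26 (log2 fold change -0.68, SE 0.09, adjusted p = 0.000168), with no overlap between lines. The calls between M1B26 and MC26 (log2 fold change -0.25 for CUL3 and -0.30 for SQSTM1) were lost without MC26 replicate 2 or without any M1B26 replicate, and for SQSTM1 also without MC26 replicate 1 (adjusted p 0.0556 to 0.116 over both genes).

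Of the small MAF genes, whose products pair with NRF2 and with BACH1, MAFG rose in MC26 (log2 fold change 0.60, SE 0.15, adjusted p = 0.00829) and in M1B26 (log2 fold change 0.78, SE 0.15, adjusted p = 0.00127). Its level was 36.2, 31.1 and 36.8 CPM in CT, 66.5, 51.0 and 40.6 CPM in MC26 and 56.2, 59.5 and 63.7 CPM in M1B26, so the transformed lines overlapped each other and not CT. MAFF and MAFK were not called, and their log2 fold changes against CT ran from -0.05 to 0.19. MAFK was called higher with length and GC offsets in MC26 (adjusted p = 0.00452) and M1B26 (adjusted p = 0.0376), with the block added to them in MC26 (adjusted p = 0.0109) and with the replicate block in M1B26 (adjusted p = 0.0436). NFE2L1, which encodes the NRF2 relative NRF1, rose to 349 ± 20.0 CPM in MC26 and to 357 ± 10.8 CPM in M1B26 from 299.9 ± 10.9 CPM in CT (SD, n = 3), log2 fold changes of 0.22 (adjusted p = 0.0202) and 0.25 (adjusted p = 0.00799). The NFE2L1 call in MC26 was lost without CT replicate 1 (adjusted p = 0.0607) and without MC26 replicate 1 (adjusted p = 0.0816). With total counts as the scaling neither NFE2L1 call held (adjusted p = 0.0976 and 0.0575). MAFG and NFE2L1 lie on chromosome 17, where the median log2 fold change of 843 tested genes was 0.48 in M1B26 against CT, -0.02 over other genes, and 0.00 in MC26. The part of this shift in their values was not tested, and none of the 9 core genes lies on that chromosome.

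Of 43 tested NRF2 targets outside the 9, 8 were higher and 20 lower in MC26, and 5 higher and 21 lower in M1B26, with median log2 fold changes of -0.23 and -0.25. M1B26 against MC26 gave 8 higher and 11 lower, with a median of -0.03, whereas the median over the 9 core genes was -0.52. Over all genes 21.2% were higher and 18.4% lower there. With length and GC offsets M1B26 against MC26 gave 6 higher and 19 lower of the 43, with a median of -0.15. Over all 15717 genes the offsets gave 2950 higher and 4745 lower there, with a median of -0.08. The largest shift lay in the 18 genes of detoxification and export, of which 12 were lower and 2 higher in MC26 (median -0.61) and 13 lower and 1 higher in M1B26 (median -0.56). In M1B26 against MC26 7 of the 18 were lower and 4 higher (median -0.13). The share called lower over all genes was 19.9% in MC26 and 23.7% in M1B26.

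ALDH3A1, an aldehyde dehydrogenase, had the lowest log2 fold change in MC26 of the listed genes that were called. It stood at 105, 89.4 and 114 CPM in CT, 4.97, 13.1 and 14.5 CPM in MC26 and 23.1, 14.1 and 28.9 CPM in M1B26, and no CT library overlapped either line. It fell in MC26 (log2 fold change -3.25, SE 0.34, adjusted p = 3.96e-05) and in M1B26 (log2 fold change -2.22, SE 0.32, adjusted p = 0.000233), and the higher level in M1B26 than in MC26 (log2 fold change 1.02, SE 0.33, adjusted p = 0.0304) was lost without MC26 replicate 1, M1B26 replicate 1 or M1B26 replicate 3 (adjusted p 0.0528 to 0.118). ALDH3A1 lies on chromosome 17, against whose shift in M1B26 it fell.

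AKR1C1 and AKR1C2 encode near-identical aldo-keto reductases, and how reads were split between them is not known. AKR1C2 stood at 308, 319 and 335 CPM in CT, 129, 223 and 136 CPM in MC26 and 38.1, 55.1 and 75.4 CPM in M1B26, with no overlap between the lines, and fell in M1B26 (log2 fold change -2.51, SE 0.25, adjusted p = 1.74e-05). AKR1C1 stood at 106, 106 and 106 CPM in CT, 247, 239 and 91.1 CPM in MC26 and 47.1, 64.9 and 87.1 CPM in M1B26. In MC26 its replicates 1 and 2 lay far above CT and replicate 3 below CT. That call (log2 fold change 0.86, SE 0.31, adjusted p = 0.049) was lost without any CT replicate, without MC26 replicate 1 or 2 and without M1B26 replicate 2 (adjusted p 0.0691 to 0.17). It was lost as well with DESeq2, limma voom, total counts, the filter at a mean of 50 counts, only the 6 libraries compared, and the replicate block with or without the offsets (adjusted p 0.0535 to 0.104). Without MC26 replicate 3 the log2 fold change was 1.198 (adjusted p = 0.000486).

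Among 11 tested genes of heme, iron and feedback, 3 were higher and 5 lower in MC26, 2 higher and 5 lower in M1B26, and 2 higher and 4 lower in M1B26 against MC26 (medians -0.08, -0.11 and -0.04), beside the 38.7%, 48.9% and 39.5% of all genes called in these comparisons. FTH1, the ferritin heavy chain that stores iron, stood at 6232, 5028 and 6667 CPM in CT, 1431, 2659 and 3115 CPM in MC26 and 1879, 2379.6 and 2723 CPM in M1B26. CT lay above both lines, which overlapped each other. It fell in MC26 (log2 fold change -1.32, SE 0.24, adjusted p = 0.00153) and in M1B26 (log2 fold change -1.36, SE 0.24, adjusted p = 0.000857). FTH1 has many processed pseudogenes, whose share of its reads is not known. OSGIN1, an oxidative-stress-induced growth inhibitor, stood at 4.89, 4.15 and 5.36 CPM in CT, 21.3, 11.5 and 6.92 CPM in MC26 and 5.59, 5.21 and 5.69 CPM in M1B26. All MC26 libraries were above all others, and replicate 3 was the lowest MC26 library, as it was for SLC7A11 and SRXN1. OSGIN1 rose in MC26 (log2 fold change 1.44, SE 0.31, adjusted p = 0.00411) and was lower in M1B26 than in MC26 (log2 fold change -1.26, SE 0.31, adjusted p = 0.00812).

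Of 8 tested genes of glutathione and thioredoxin use, 2 were higher and 2 lower in MC26, 2 higher and 1 lower in M1B26, and 2 higher and 0 lower in M1B26 against MC26, where 0 were also lower at an unadjusted p under 0.05, by DESeq2 and by limma voom. The share called over all genes was 38.7%, 48.9% and 39.5%. Named after their values were seen, the glutathione transferase gene GSTP1 and the thioredoxin gene TXN were higher than CT in both lines (log2 fold changes 0.48 and 0.30 in MC26 and 0.51 and 0.32 in M1B26), and the glutathione reductase gene GSR was lower in both (-0.38 and -0.33). SLC3A2 was the other lower gene in MC26, and in M1B26 against MC26 SLC3A2 and the transferase gene GSTA4 were the higher ones. The calls in MC26 came to 7 genes without MC26 replicate 3, and those in M1B26 against MC26 to 1 without CT replicate 1, MC26 replicate 2 or 3, or any M1B26 replicate. With the length and GC offsets the list gave 1 higher and 3 lower in every comparison. Over all 15717 genes the offsets called 7782 in MC26, 8360 in M1B26 and 7695 in M1B26 against MC26. Against CT, at most 1 of GSTP1 and TXN can therefore have kept its call with the offsets. Without the offsets TXN rose where the reductase of its protein, TXNRD1, fell.

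Of 6 genes of NADPH supply, 1 was higher and 1 lower in MC26 and 2 were lower in M1B26, smaller shares than the 38.7% and 48.9% called over all genes. With the offsets 4 were lower in M1B26, beside 4252 of all 15717 genes. Named after their values were seen, the genes called included TALDO1 (0.35) and IDH1 (-0.31) in MC26 and the pentose phosphate gene TKT (-0.36) in M1B26. No NADPH gene was called higher in M1B26, and 0 were at an unadjusted p under 0.05, by DESeq2 or by limma voom. Without CT replicate 2 the calls in MC26 came to 4 genes, and without CT replicate 1 or 3 or M1B26 replicate 1 or 3 those in M1B26 to 1. None passed in M1B26 against MC26 by edgeR, where 4 were called lower with the length and GC offsets, 1 with RLE factors or total counts and at most 2 when a library was left out (without CT replicate 2), against 1 lower at an unadjusted p under 0.05, 1 lower by DESeq2 and 0 by limma voom. Over all 15717 genes the offsets gave 4745 lower in M1B26 against MC26. GPX2 (46 counts over 9 libraries) and GSTM1 (13 counts) of the glutathione list were too low to test.

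**Figure D4:**
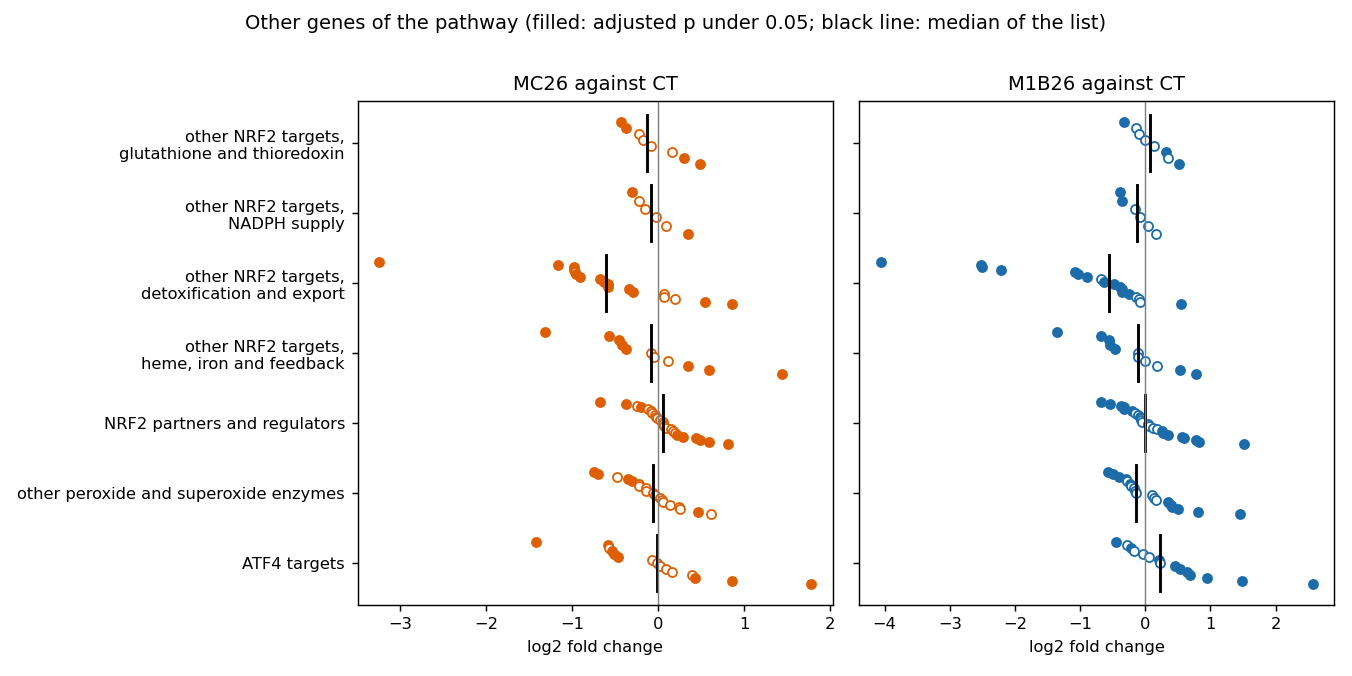
Log2 fold change (x axis) of every tested gene of 7 lists (y axis) in MC26 and M1B26 against CT; filled symbols have an adjusted p under 0.05 and the black line is the median of the list. The detoxification and export genes lay mostly under 0, with medians of -0.61 in MC26 and -0.56 in M1B26.

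Enzymes against peroxide and superoxide that are not usually counted as NRF2 targets were listed as well. Of 19 tested, 1 was higher and 4 lower in MC26, 6 higher and 5 lower in M1B26, and 6 higher and 1 lower in M1B26 against MC26, with medians of -0.07, -0.14 and 0.16. The 5 of 19 called in MC26 are a smaller share than the 38.7% over all genes, where the other comparisons gave 48.9% and 39.5%. The calls in MC26 came to 8 genes without CT replicate 2 or MC26 replicate 3, and those in M1B26 against MC26 to 4 without MC26 replicate 2 or M1B26 replicate 2. With the length and GC offsets, M1B26 against MC26 gave 3 higher and 2 lower with a median of -0.05, beside -0.08 over all genes. With the same offsets M1B26 against CT gave 5 higher and 9 lower, beside 4108 higher and 4252 lower of all 15717 genes. SOD2, the mitochondrial superoxide dismutase, stood at 254, 252 and 224 CPM in CT, 184, 365 and 565 CPM in MC26 and 557, 544 and 906 CPM in M1B26. It rose in M1B26 (log2 fold change 1.46, SE 0.32, adjusted p = 0.00347), and MC26 did not pass the test, with libraries on both sides of CT. MC26 replicate 3, the lowest MC26 library for 6 of the core genes, was the highest for SOD2. GPX1, a glutathione peroxidase, stood at 397, 293 and 444 CPM in CT, 541, 503 and 519 CPM in MC26 and 705, 669.6 and 621 CPM in M1B26, with no overlap between the lines. It rose in M1B26 (log2 fold change 0.82, SE 0.12, adjusted p = 0.000332) while GCLC and GCLM, which supply its glutathione, fell. SOD3 (0 counts) and GPX3 (4 counts) were not tested.

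SLC7A11 is also a target of ATF4, the factor of the amino acid response, so 15 genes of that response were counted. In MC26, 3 were higher and 5 lower (median -0.02), beside 18.8% and 19.9% of all genes. In M1B26, 8 were higher and 2 lower (median 0.22), and in M1B26 against MC26 9 were higher and 1 lower (median 0.37). Over all genes 25.2% were called higher in M1B26 and 21.2% in M1B26 against MC26. The part of ATF4 in the level of SLC7A11 was not tested. PHGDH, which opens serine synthesis, stood at 110.2, 105 and 120.2 CPM in CT, 34.4, 42.7 and 47.7 CPM in MC26 and 75.1, 80.8 and 90.3 CPM in M1B26, with no overlap between the lines. It fell in MC26 (log2 fold change -1.43, SE 0.12, adjusted p = 6.49e-06) and, by less, in M1B26 against CT (log2 fold change -0.45, adjusted p = 0.00725). PHGDH was thus higher in M1B26 than in MC26 (log2 fold change 0.98, SE 0.12, adjusted p = 0.000108). DDIT4, an inhibitor of mTORC1 signalling, stood at 926, 795 and 966 CPM in CT, 485, 619 and 749.9 CPM in MC26 and 1254, 1369 and 1584 CPM in M1B26, again with no overlap, and was higher in M1B26 than in MC26 (log2 fold change 1.18, SE 0.15, adjusted p = 0.000146). With offsets for gene length and GC content, 6 genes of the list were called in M1B26 against MC26, of 10 without them. The 10 became 5 without MC26 replicate 2 and 6 without M1B26 replicate 3. With the offsets the median of the list was 0.07 in MC26, 0.07 in M1B26 and 0.11 in M1B26 against MC26. The medians over all genes were then 0.06, -0.02 and -0.08.

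For the genes that changed at least 2-fold in a comparison, TXNRD1 and SLC7A11, the profiles most like theirs over the 9 libraries were sought among the 10636 genes whose mean reached 5 CPM. Likeness was the root mean square difference of centred log2(CPM + 0.5). For TXNRD1 the nearest were ATP1B1 (0.158), SH3D21 (0.173) and CDK19 (0.180), where the median gene differed by 0.568. For SLC7A11 they were UBASH3B (0.136), ETS1 (0.144) and CDYL2 (0.181), against a median of 0.609. ETS1 stood at a mean of 38.7 CPM in CT, 87.0 CPM in MC26 and 55.7 CPM in M1B26, and ATP1B1 at 71.7, 49.2 and 35.2 CPM. These values describe 9 libraries that share 3 lines. None of the 6 genes was on the lists of NRF2 targets, partners or ATF4 targets.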

How the data were processed

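Poly-A RNA of 9 cultures (3 each of MCF10A-CT, MC26 and M1B26) was paired-end sequenced. The deposited table holds raw counts for each symbol, neither filtered nor normalized. Per the labels and the methods, reads were aligned by the authors with STAR 2.7.3a to GRCh38, and expression was quantified with Salmon 1.1.0 on protein-coding genes. The deposited table holds whole numbers and non-coding genes as well, so whether Salmon made these counts is not known. Strandedness and the handling of multiply aligned reads are not given in the sources used here. Groups and replicate numbers came from sample titles. For BMP2 and IL6 the doses in the labels were used, and those in the study's methods differ in amount and unit.

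Lines were compared with edgeR 4.0.16 under R 4.3.3 (filterByExpr with a minimum count of 10, TMM, glmQLFit with line as the only term over 9 libraries, glmQLFTest). This left 15717 genes. P-values are 2-sided, adjusted by Benjamini-Hochberg over all tested genes, and genes under 0.05 were called. The biological coefficient of variation was 10.4%. An SE is the absolute log2 fold change divided by the square root of F. CPM used TMM-scaled library sizes, and levels per kilobase used the GENCODE v44 canonical transcript. Ratios were compared by exact permutation tests (Python 3.11.15). The fit was also run on simulated counts, and the outcome is not given here.

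The 9 genes and all lists were chosen with earlier results of these data known. Named from the lists were, for each comparison, the 3 highest and 3 lowest called log2 fold changes with a mean of at least 5 CPM, plus CUL3, BACH1, MAFG, MAFF, MAFK, NFE2L1, SQSTM1 and SLC3A2. Alternatives were RLE factors, total counts, a filter at a mean of 50 counts, no filter, the replicate number as a block, offsets for length and GC content (88.0% of tested genes had both), the 2 together, only the 6 libraries compared, limma voom 3.58.1, DESeq2 1.42.0, and leaving out each library.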

Additional observations from a re-analysis of the deposited data

Results flagged for a closer look

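Of the core genes and the list genes named by rule, 18 differed between MC26 and M1B26 in their response relative to CT. The test was the direct edgeR test of M1B26 against MC26 at an adjusted p under 0.05. AKR1C1, AKR1C2, OSGIN1, DDIT4, ALDH3A1 and PHGDH were named because this test called them, so their calls were fixed in advance. The 18 therefore cannot be set beside the 39.5% of all genes that the test called. Of the 18, 7 were core genes, which stood lower in M1B26, and the 2 lines shared the CT libraries as reference. The log2 fold changes were -0.88 for SLC7A11, -0.84 for GCLM, -0.65 for NQO1, -0.54 for TXNRD1, -0.52 for GCLC, -0.44 for SRXN1 and -0.24 for KEAP1. Of the regulators, CUL3 (-0.25) and SQSTM1 (-0.30) were lower and BACH1 (0.53) was higher in M1B26. SLC3A2 differed by 0.29, opposite in sign to SLC7A11, and this call was lost without CT replicate 1, MC26 replicate 2 or 3, or M1B26 replicate 1 or 3 (adjusted p 0.0592 to 0.115). Of the other listed genes, ALDH3A1 (1.02), PHGDH (0.98), DDIT4 (1.18) and GPX1 (0.35) were higher in M1B26, and OSGIN1 (-1.26), AKR1C1 (-1.53) and AKR1C2 (-1.53) lower. The GPX1 call was lost with the length and GC offsets (log2 fold change 0.05) and without any library except CT replicate 2 or 3 (adjusted p 0.0524 to 0.13). With 3 libraries per line, no test for a library far from its group was made.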

How the results depend on the processing

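Over 19 alternatives, 456 of 513 values of the 9 genes kept their direction and their side of the threshold, 35 lost a call, 14 gained a call and 8 changed sign. In MC26 against CT, SRXN1, SLC7A11 and TXNRD1 were called under every alternative, as were NQO1, GCLC, GCLM and TXNRD1 in M1B26 against CT, and NQO1, GCLC, GCLM and SLC7A11 in M1B26 against MC26. Leaving out each library gave 3 to 5 core genes called in MC26 against CT, 4 to 5 in M1B26 against CT and 4 to 8 in M1B26 against MC26. Fewer libraries were fitted there, and a cause was not otherwise tested.

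Sign changes were confined, among the genes named, to log2 fold changes that passed no test. In MC26 against CT, NFE2L2 gave -0.0624 with total counts and -0.0433 (without MC26 replicate 3) to 0.0867 when a library was left out. CUL3 gave 0.0293 with length and GC offsets, 0.0283 with the block added and -0.129 to 0.00808 (without CT replicate 2) over left-out libraries. MAFF gave 0.0869, 0.0845 and -0.0906 to 0.0462 (without CT replicate 3). In M1B26 against CT, NFE2L2 gave 0.0498 with the offsets and 0.0485 with the block added. KEAP1 gave 0.00115 with no filter and -0.0874 to 0.0679 (without CT replicate 3) over left-out libraries, and MAFF -0.113 to 0.0241 (without CT replicate 3). In M1B26 against MC26, MAFF gave -0.0326 to 0.0102 (without M1B26 replicate 1). MAFK gave -0.102 with the offsets, -0.102 with the block added and -0.00964 (without MC26 replicate 2) to 0.0741, and NFE2L1 -0.0382, -0.0368 and -0.00423 (without MC26 replicate 3) to 0.0785. FTH1 gave 0.0126 with limma voom and -0.310 to 0.187 (without MC26 replicate 3). The log2 NFE2L2 to KEAP1 ratio in M1B26 against CT ran from -0.217 to 0.0232 (without CT replicate 2). Causes were not tested.

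Whether equal replicate numbers pair the samples is not known. Deviations of same-numbered libraries correlated at -0.114, 0.106 and 0.0237 between MC26 and CT, -0.0132, 0.00184 and -0.00181 between M1B26 and CT, and 0.0810, 0.0418 and 0.136 between M1B26 and MC26. Libraries of different number gave -0.129 to 0.119, -0.0122 to 0.0143 and -0.114 to 0.0410 in the same order. Between M1B26 and MC26 the same-numbered values were thus the highest. With 3 libraries per line these values cannot decide on pairing. With the replicate block, 5, 4 and 7 core genes were called in MC26 and M1B26 against CT and in M1B26 against MC26, HMOX1 in MC26 being the call lost (adjusted p = 0.0599). Over all genes it called 5879, 7513 and 6009, where 6081, 7688 and 6215 were called without it.

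Scaling moved the balance of calls over all genes. Of the genes called, 48.5%, 51.5% and 53.5% were higher in the order above, against 35.8%, 39.6% and 50.5% with total counts and 60.1%, 49.1% and 38.3% with length and GC offsets. HMOX1 rests on 109 to 407 counts per library, fewer than any other of the 9 genes.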
